A study of Mus musculus with 4 samples.

Results

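The genes described here are the mouse matrix metalloproteinases (Mmp), the secreted proteases of the Adamts family, the Adamts-like proteins (Adamtsl) and the tissue inhibitors of metalloproteinases (Timp). They were chosen by gene symbol alone, which gave 51 of 22072 gene symbols in the deposited tables: 23 Mmp genes, 19 Adamts genes, 5 Adamtsl genes and 4 Timp genes. RNA was sequenced from molar tooth mesenchyme of mouse embryos of mixed background at embryonic day 13.5, taken from frozen sections of the head by laser capture microdissection. Controls had a floxed Bmp4 allele over an unmodified one (Bmp4f/+), and the mutant (Bmp4f/f;Wnt1Cre) had both Bmp4 alleles floxed and carried Wnt1-Cre, a Cre recombinase driver of the neural crest, from which tooth mesenchyme derives. No Cre is named for the control, so the Cre transgene and the loss of Bmp4 cannot be told apart. Upper (maxillary) and lower (mandibular) molars were kept apart, which gave 4 groups with 1 library each, and each library was a pool, with 3 pairs of control and mutant samples named in the series description.

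Matrix metalloproteinases are zinc enzymes that cut collagens and other matrix proteins; most are secreted as inactive precursors, and the membrane-type members are held at the cell surface. Adamts enzymes carry thrombospondin repeats that bind them to the matrix and include the versican- and aggrecan-cleaving proteoglycanases and the procollagen N-proteinases, which trim fibrillar procollagens, whereas Adamtsl proteins share the repeats but have no protease domain. Timp proteins block the active site of Mmp enzymes, and Timp2 also bridges Mmp14 to the precursor of Mmp2, which Mmp14 then helps to activate at the cell surface. In the developing tooth, matrix remodelling of this kind accompanies growth of the mesenchyme under the dental epithelium and, at later stages, formation of dentin and enamel.

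Values are FPKM (fragments counted per kilobase of transcript and scaled to the mapped reads of each library), summed per gene, so levels can be compared between genes per length. The 4 libraries had between 4820000 and 5550000 approximate reads on annotated transcripts, and 3 reads on a transcript of 2 kb stood for between 0.101 and 0.115 FPKM. Bmp4 had 24.8 FPKM in upper and 27.2 FPKM in lower molars of controls, against 4.75 and 4.90 FPKM in mutants. In bulk tissue, fewer cells of a type and less RNA per cell cannot be told apart. Of the tooth mesenchyme markers found (Msx1, Pax9, Barx1, Lhx6, Lhx8, Dlx1, Dlx2, Prrx1 and Twist1), all 9 reached a mean of 1 FPKM, and their summed level was between 627 and 730 FPKM. The erythroid markers summed to between 918 and 1090 FPKM, the endothelial markers to between 35.0 and 49.7 FPKM and the epithelial markers to between 22.4 and 24.98 FPKM, so markers of other cell types were detected in every library.

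The first question was which of these genes molar mesenchyme expressed. A small set dominated: Mmp14, Mmp2 and Timp2, the components of the cell-surface Mmp2 activation complex, together held 67.0%, 64.1%, 67.4% and 62.8% of the summed FPKM of all 51 genes in the control upper, control lower, mutant upper and mutant lower library. Averaged across libraries, 21 of the 51 genes reached 1 FPKM (41.2%), against 10502 of all 22072 gene symbols (47.6%). The 21 were 7 of the 23 Mmp genes, 9 of the 19 Adamts genes, 2 of the 5 Adamtsl genes and 3 of the 4 Timp genes. By class, the summed level over the libraries was between 120 and 131 FPKM for Mmp, between 45.6 and 60.4 FPKM for Timp, between 28.5 and 35.6 FPKM for Adamts and between 1.70 and 3.91 FPKM for Adamtsl.

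**Figure D1:**
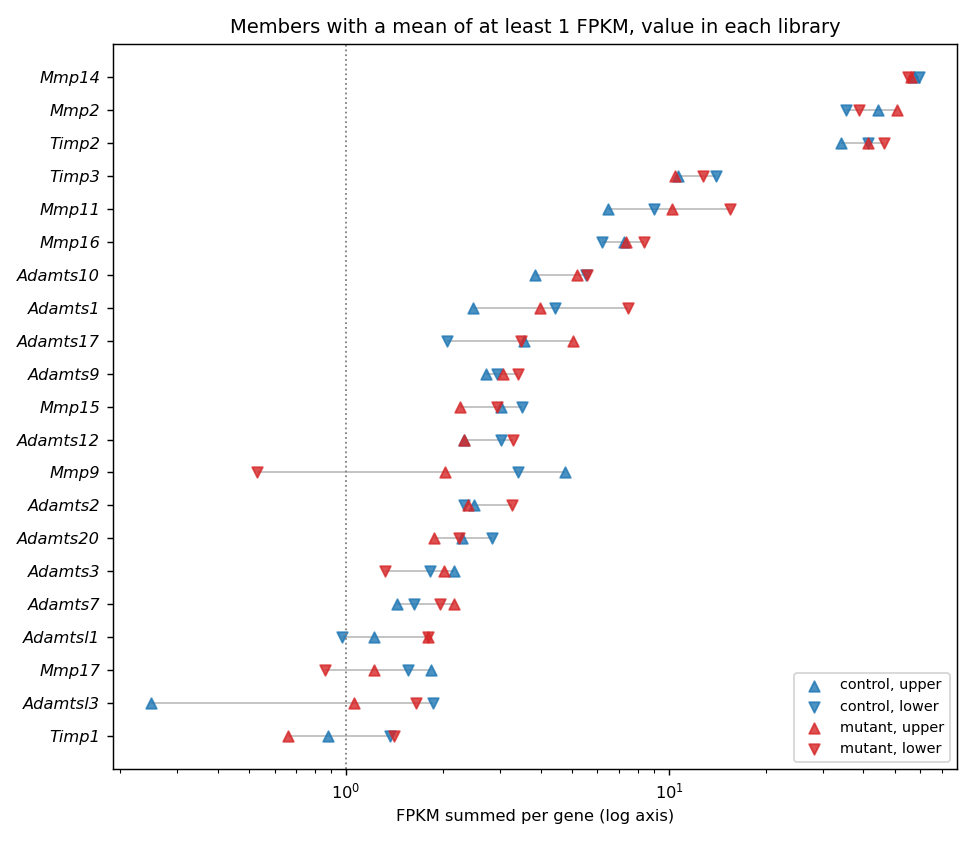
FPKM (log axis) of the 21 expressed genes (averaging 1 FPKM or more) in each of the 4 libraries, ordered by mean, with blue for control, red for mutant, upward triangles for the upper and downward triangles for the lower molar; grey lines join the lowest and highest library. Mmp14, Mmp2 and Timp2 lie above 30 FPKM in all libraries, and Mmp9 and Adamtsl3 span the widest range.

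Mmp14, a membrane-bound collagenase (chromosome 14, 55050441 to 55060095, mm9), was the most highly expressed, at 57.2, 59.5, 56.2 and 55.1 FPKM in the control upper, control lower, mutant upper and mutant lower library. Mmp2 (gelatinase A, chromosome 8, 95351227 to 95377319) had 44.3, 35.2, 50.7 and 38.9 FPKM in the same order. Timp2 (chromosome 11, 118162375 to 118216725) had 33.98, 41.2, 41.4 and 46.3 FPKM. The fourth in order, Timp3, lay well below these at a mean of 11.9 FPKM, followed by Mmp11 at 10.3 FPKM, Mmp16 at 7.29 FPKM, Adamts10 at 5.03 FPKM and Adamts1 at 4.59 FPKM. The ranges of Mmp2 and Timp2 over the libraries overlapped, with Mmp2 above Timp2 in both upper molars and below it in both lower molars. Ranges also overlapped for Timp3 and Mmp11, for Mmp11 and Mmp16, and for Adamts10 and Adamts1. The order by mean within these pairs thus does not hold in every library.

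The threshold of 1 FPKM divided genes of similar level. Just above it lay Timp1, at 0.878, 1.37, 0.661 and 1.41 FPKM in the control upper, control lower, mutant upper and mutant lower library, and just below it Adamts15 (mean 0.983 FPKM), Adamts14 (0.965 FPKM) and Adamts4 (0.957 FPKM). With Adamts6, 4 genes had a mean between 0.882 and 0.983 FPKM. Another 9 had a mean between 0.133 and 0.457 FPKM, among them Mmp28, Mmp23, Adamts5 and Mmp25. A further 9 had a mean above 0 and at most 0.0938 FPKM, and 8 were listed at 0 in all libraries with an estimation status of OK.

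Of the 8 genes listed at 0, 7 lie in 1 place, and Adamts13 on chromosome 2 is the other. The 10 Mmp genes of a cluster on chromosome 9 (7272514 to 7699416, mm9, 427 kb) are the collagenases Mmp13, Mmp1a, Mmp1b and Mmp8, the stromelysins Mmp3 and Mmp10, the matrilysin Mmp7, the macrophage elastase Mmp12, the enamel protease Mmp20, which is made by ameloblasts at later stages, and Mmp27. Of these, 7 were listed at 0 in all libraries, and the highest value in any of them was 0.0381 FPKM, for Mmp20 in the mutant upper molar. About 7 reads in all fell on the 10 genes over the 4 libraries. Neighbouring genes on both sides were expressed: Dcun1d5, the nearest upstream of Mmp13, had a mean of 4.98 FPKM, and Tmem123, the nearest beyond Mmp7, had a mean of 8.10 FPKM, while Yap1, a transcriptional coactivator, reached 21.7 FPKM. Of the 13 Mmp genes outside the cluster, 7 had a mean of at least 1 FPKM. For a gene listed at 0, a count of 0 allows up to 3 reads, which for these 10 genes stood for at most between 0.0638 FPKM for Mmp12 and 0.262 FPKM for Mmp7, so low expression below these limits was not detectable at this depth.

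**Figure D2:**
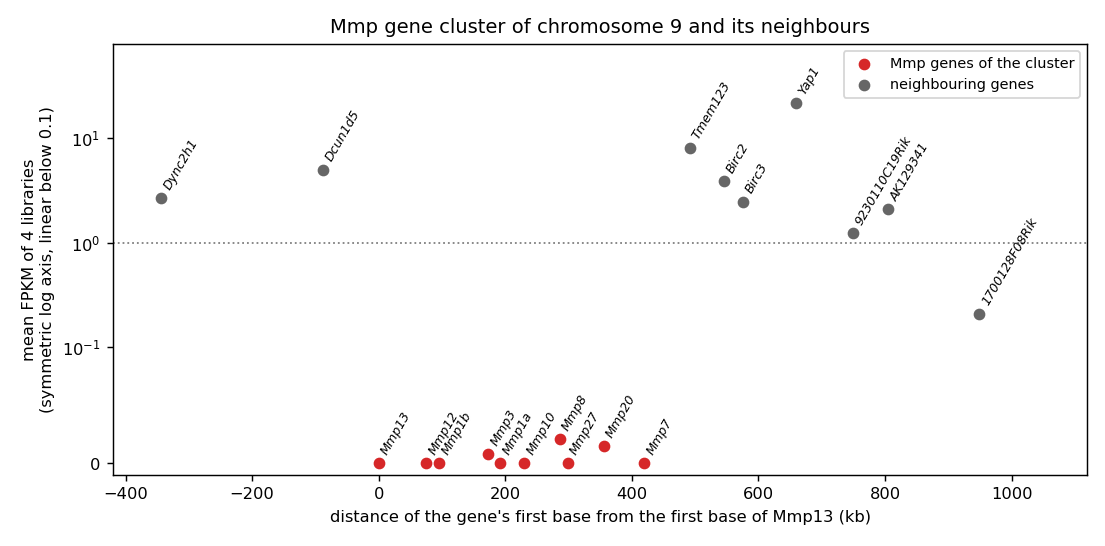
Mean FPKM over the 4 libraries (symmetric log axis, linear below 0.1) of the Mmp genes of the chromosome 9 cluster (red) and of neighbouring genes (grey), against the distance in kb of each gene's first base from that of Mmp13. The 10 red points lie at or near 0, between neighbours such as Dcun1d5 at 4.98 FPKM and Tmem123 at 8.10 FPKM.

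Promoter windows of the cluster genes and of the expressed members were then searched for short motifs. RefSeq promoter windows on GRCm38.p6, from 250 bases before to 50 bases after the annotated start, were available for 36 of the 51 genes, among them all 10 cluster genes and 14 of the 21 expressed genes. Only 3 expressed Mmp genes had a window (Mmp11, Mmp14 and Mmp15). Mmp2, Mmp9, Mmp16 and Mmp17 had none, so most of the expressed windows belong to Adamts, Adamtsl and Timp genes. The searched motifs were the TATA box (TATAAA), the AP-1 site (TGANTCA), the GC box (GGGCGG) and a GC-rich Smad element (GGCGCC), each on both strands; matches of GGGCGG and GGCGCC can share letters. On its own the TATA box was in 9 of the 12 cluster windows, 1 of the 14 expressed windows (Adamts1) and 13.6% of all windows, and the AP-1 site in 8, 0 and 7.81%. A TATA box and an AP-1 site stood together in 8 of the 12 windows of the cluster genes, 66.7%, in 0 of the 14 windows of the expressed genes, and in 1.54% of all 32851 windows. A GC box stood in 12 of the 14 expressed windows, 0 of the 12 cluster windows and 35.7% of all windows. It also stood in 10 of the 13 windows of members below the threshold outside the cluster, where the AP-1 site was in 0, the TATA box in 2 and GGCGCC in 5. The Smad element was in 3 of the 14 expressed windows (Adamts2, Adamts9 and Mmp11), 0 cluster windows and 11.9% of all windows. The cluster windows held between 0 and 7 CpG dinucleotides and the expressed windows between 7 and 46, with a median of 7 over all windows. Cluster genes are paralogs and share ancestry, so their windows are not independent, and a match to these letters is a description and not evidence of binding.

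Windows of 2 cluster genes and 2 expressed genes are shown to make these counts visible, each written from 5′ to 3′ on the strand of the gene. Capitals mark matches to the searched motifs: the AP-1 site and then the TATA box in Mmp13 (chr9:7272264-7272563, plus strand) and Mmp3 (chr9:7445572-7445871, plus strand), GC boxes in Mmp14 (chr14:54431348-54431647, plus strand), and GC boxes with 1 GGCGCC element in Mmp11 (chr10:75932453-75932752, minus strand).
Mmp13: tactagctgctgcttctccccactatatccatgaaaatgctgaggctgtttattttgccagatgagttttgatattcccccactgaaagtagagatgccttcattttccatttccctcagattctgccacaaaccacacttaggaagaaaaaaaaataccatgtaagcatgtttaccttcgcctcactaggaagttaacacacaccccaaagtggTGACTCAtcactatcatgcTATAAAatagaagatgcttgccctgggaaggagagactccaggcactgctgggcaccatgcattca
Mmp3: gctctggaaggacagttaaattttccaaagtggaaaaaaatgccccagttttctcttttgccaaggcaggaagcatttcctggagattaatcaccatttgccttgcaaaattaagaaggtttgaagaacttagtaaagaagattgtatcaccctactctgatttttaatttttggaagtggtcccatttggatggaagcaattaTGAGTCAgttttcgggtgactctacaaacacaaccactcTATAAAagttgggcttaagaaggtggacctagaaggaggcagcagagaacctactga
Mmp14: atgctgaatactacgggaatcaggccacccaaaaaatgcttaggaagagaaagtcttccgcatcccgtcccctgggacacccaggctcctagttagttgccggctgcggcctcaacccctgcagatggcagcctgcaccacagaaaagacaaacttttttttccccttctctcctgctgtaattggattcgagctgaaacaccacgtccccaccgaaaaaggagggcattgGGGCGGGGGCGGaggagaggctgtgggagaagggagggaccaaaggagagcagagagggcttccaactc
Mmp11: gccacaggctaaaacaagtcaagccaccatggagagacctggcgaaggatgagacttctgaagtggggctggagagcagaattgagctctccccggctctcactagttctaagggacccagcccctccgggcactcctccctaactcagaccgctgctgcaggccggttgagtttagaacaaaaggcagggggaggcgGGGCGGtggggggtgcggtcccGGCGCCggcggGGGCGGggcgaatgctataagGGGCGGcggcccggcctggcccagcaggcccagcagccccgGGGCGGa
In Mmp13 the AP-1 site began 35 bases and the TATA box 16 bases before the annotated start, and in Mmp3 they began 46 and 7 bases before it. In Mmp14 a pair of adjoining GC boxes began 19 and 13 bases before the start. The GC content was 43.7% and 40.0% for the windows of Mmp13 and Mmp3 and 56.0% and 67.0% for those of Mmp14 and Mmp11.

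The next comparison asked which of the expressed genes differed between mutant and control. Of the 21, only Mmp9 (gelatinase B) passed the test, lower in the mutant, and it lost that call under most alternatives. Mmp11 (stromelysin-3) and the proteoglycanase Adamts1 were higher in the mutant by 0.65 ± 0.11 and 0.58 ± 0.11 (log2, SE) over both molars without passing the test. With 1 library left out these values ranged from 0.38 to 0.925 and from 0.199 to 0.96. Fits with a library left out have no molar term, so their values also carry part of the difference between lower and upper molars. Mmp14, Mmp2 and the Timp genes differed by 0.22 or less. Differences were taken as log2(FPKM + 1), where changes of weakly expressed genes appear smaller, and tested with limma over both molars with genotype and molar as terms, adjusted over all 10502 genes (Benjamini-Hochberg). With 1 residual degree of freedom, its p-values rest on how far the molars disagree and on a spread borrowed from genes of similar level, not on variation between embryos. limma called 1 of the 21 genes lower and 0 higher at an adjusted p under 0.05, against 0.457% and 0.343% of all genes tested. At an unadjusted p under 0.05, 4 of the 21 were higher (Mmp11, Adamts1, Adamts17 and Adamtsl1; 6.68% of all genes) and 2 lower (Mmp9 and Mmp17; 6.51%). Counting direction alone, 10 of the 21 had higher mutant values in each molar and 7 had lower ones (27.2% and 32.4% of all genes), 4 went opposite ways in the molars (40.2%), and these counts of members were the same after rescaling the libraries by median ratios. Over all genes rescaling moved them from 2852 higher and 3403 lower to 3214 and 3139. Both mutant libraries lay above both controls for 6 of the 21 (18.4% of all genes) and below both for 5 (23.1%). The median difference of the 21 genes was 0.02 for upper and 0.09 for lower molars, against 0.01 and -0.05 over all genes.

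**Figure D3:**
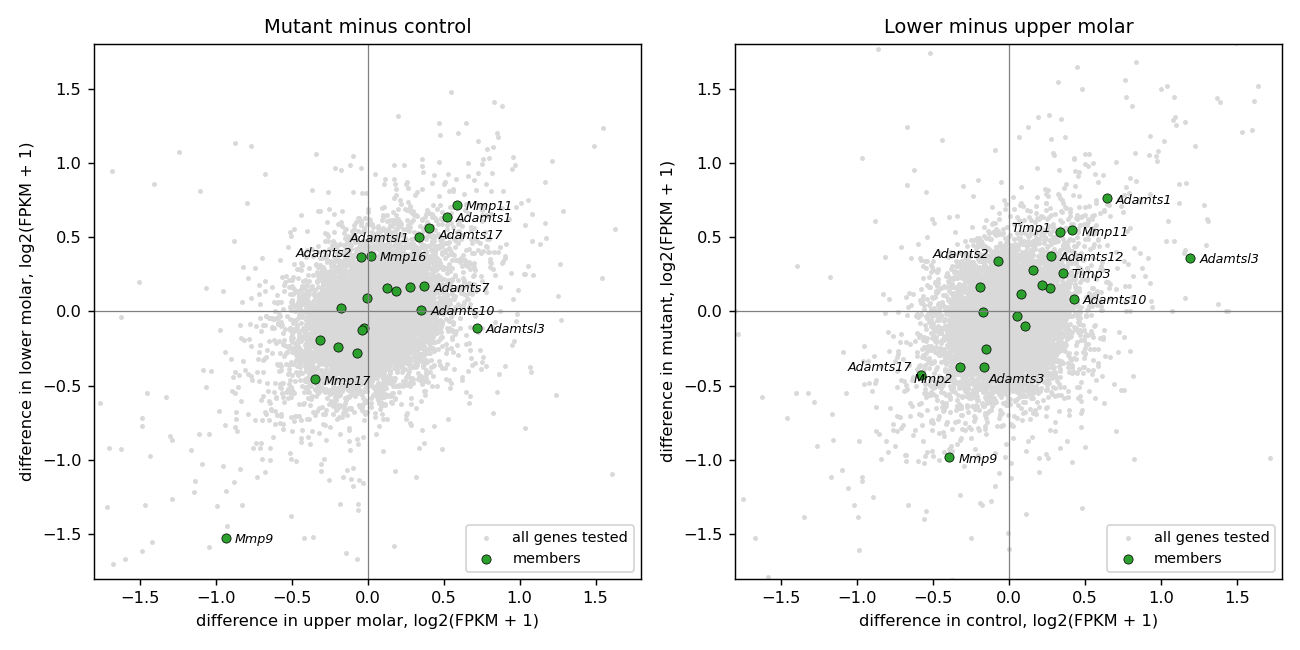
Difference in log2(FPKM + 1) between mutant and control in the upper (x) and lower (y) molar (left), and between lower and upper molar in control (x) and mutant (y) (right). Green points are the 21 expressed members and grey points all genes tested, of which 63 (left) and 68 (right) lie beyond the axes; Mmp9 lies far into the lower left of the left panel and Adamts1 far into the upper right of the right panel.

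Of the 2 gelatinases, which cut denatured collagen and basement membrane collagen, Mmp9 (chromosome 2, 164773751 to 164781346, mm9) had 4.76 FPKM in upper and 3.40 FPKM in lower molars of controls, against 2.02 and 0.529 FPKM in mutants. Both mutant libraries lay below both controls, at 42.5% of the control level in upper molars and 15.6% in lower molars. These values rested on about 196, 139, 94 and 23 reads. On the log2 scale Mmp9 fell by 1.23 ± 0.17 (SE; limma, adjusted p = 0.036). It was the 1 member of the 21 past a 2-fold decrease in the lower molar (0.619% of all genes lower, 1.1% in either direction), while 0 members passed 2-fold in the upper molar (0.59% lower, 1.01% in either direction). Fold limits here and below are differences in log2(FPKM + 1); in plain FPKM Mmp9 and Adamtsl3 (425% of control) were past 2-fold in the upper molar too, and with a pseudocount of 0.1 these 2 were counted. Past 1.5-fold were Mmp11, Mmp9 and Adamtsl3 in the upper molar, 3 of 21 against 3.96% of all genes, and Mmp11, Adamts1 and Mmp9 in the lower, 3 of 21 against 4.36%. The call did not hold widely: the limma adjusted p was 0.057 with a pseudocount of 0.1, 0.056 without an intensity trend, 0.094 after rescaling, 0.44 without a term for the molar and 0.69 without a filter on low values. Leaving out 1 library, in fits without a molar term, gave -1.03 (control upper), -1.42 (control lower), -1.72 (mutant upper) or -0.736 (mutant lower). Since both mutant libraries lay below both controls, these values could only be negative, and their direction adds no support.

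Mmp9 is known from osteoclasts, macrophages and vascular cells as well as from mesenchyme. Markers of macrophages and mast cells, vascular cells, osteoblasts and cartilage were set beside it, and no list of osteoclast markers was used. The 12 macrophage and mast cell markers found summed to 11.8 FPKM in upper and 13.0 FPKM in lower molars of controls, against 12.9 and 16.3 FPKM in mutants. Of the 4 that were tested, limma called 1, Kit, a gene of mast cells and melanoblasts, higher in the mutant (adjusted p = 0.048). Calls of these markers were not followed under the alternative settings. Over all genes tested limma called 0.343% higher and 0.457% lower in the mutant. Without Kit the other 11 summed to 9.21 and 9.59 FPKM in control against 8 and 10.2 FPKM in mutant tissue. The mutant sum was thus lower in the upper and higher in the lower molar. Lyz2 was lower in both molars, at 2.59 and 3.15 against 2.16 and 2.36 FPKM. C1qb was higher in both, at 2.13 and 2.23 against 2.30 and 2.78 FPKM, and Cd68 went opposite ways. Cma1 was listed at 0. The 10 endothelial markers summed to 49.7 and 45.8 FPKM in control against 35.0 and 43.2 FPKM in mutant tissue. The 9 pericyte and smooth muscle markers summed to 51.8 and 47.1 FPKM in control against 34.6 and 31.2 FPKM in mutant tissue, of which Rgs5, called lower by limma, made up 31.9, 25.1, 9.03 and 9.48 FPKM. Without Rgs5 the other 8 summed to 19.9 and 22 FPKM in control against 25.6 and 21.7 FPKM in mutant tissue, higher in the mutant upper molar. Pdgfrb was higher in both molars, at 14.1 and 15.6 against 20.2 and 16.1 FPKM, as was Acta2. Cspg4 was lower in both, at 2.45 and 2.55 against 1.84 and 2.45 FPKM. The 9 osteoblast markers summed to 172 and 206 FPKM in control against 152 and 207 FPKM in mutant tissue, most of it Col1a1, which had 95.3 and 140 against 105 and 165 FPKM. limma called 0 of the 5 tested: Runx2 (62.2 and 48.2 against 39.5 and 31.0 FPKM), Sp7 and Alpl had lower mutant values in both molars, Col1a1 higher ones, and Phex went opposite ways. Sp7 had 8.92 and 7.04 FPKM in control against 1.92 and 4.25 FPKM in mutant tissue. Of the 3 cartilage markers tested limma called 1, Sox9, lower, at 8.78 and 5.04 against 3.43 and 1.60 FPKM. The part of these cells in the value of Mmp9 was not tested.

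The other gelatinase, Mmp2, differed by 0.19 (upper) and 0.14 (lower) between mutant and control, and its control and mutant values overlapped (limma 0.16 ± 0.10, SE, adjusted p = 0.55). Without the mutant upper library the difference was -0.023, in a fit that has no molar term. That value also carries part of the difference between lower and upper molars.

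Of the 6 membrane-type Mmp genes, 4 were expressed and limma called 0 of them for genotype. At an unadjusted p under 0.05 (limma), 1 was lower in the mutant, Mmp17 (6.51% of all genes). Mmp14 differed by -0.07 ± 0.10 (limma log2, SE, adjusted p = 0.82). Mmp15, a transmembrane enzyme, had 3.03 FPKM in upper and 3.49 FPKM in lower molars of controls, against 2.25 and 2.93 FPKM in mutants. Mmp17, which is held by a glycosylphosphatidylinositol anchor, had 1.83 and 1.56 FPKM in control against 1.22 and 0.861 FPKM in mutant tissue. For Mmp14, Mmp15 and Mmp17 both mutant libraries were below both controls, by at most 0.46 in a molar. Over all genes this held for 23.1%, and mutant Mmp14 was at 98.1% (upper) and 92.55% (lower) of control. Mmp16, also transmembrane, had both mutant libraries above both controls (18.4% of all genes). It had 7.24 and 6.22 FPKM in control against 7.36 and 8.35 FPKM in mutant tissue. Nearly all of the difference was in the lower molar. The remaining 2, Mmp24 and Mmp25, had means of 0.0344 and 0.26 FPKM.

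Mmp11 (chromosome 10, 75385969 to 75395208, mm9), which furin activates inside the cell and which is known from stroma next to epithelium, had 6.48 FPKM in upper and 8.98 FPKM in lower molars of controls, against 10.2 and 15.4 FPKM in mutants. The mutant level was 158% of control for upper and 172% for lower molars, and both mutant libraries lay above both controls. limma did not call it (0.65 ± 0.11, log2, SE, adjusted p = 0.063). With the test run over genes averaging 5 FPKM or more, or without transcripts under 300 bases, limma called Mmp11 higher (adjusted p = 0.0048 and 0.030). Its adjusted p was 0.060 with a pseudocount of 0.1, 0.101 after rescaling, 0.106 without a trend, 0.52 without the molar term and 0.60 without a filter. Leaving out 1 library gave 0.44 (control upper), 0.86 (control lower), 0.925 (mutant upper) and 0.38 (mutant lower). These fits have no molar term, and within the molars the differences were 0.59 (upper) and 0.72 (lower). The epithelial markers, by comparison, summed to 22.4 and 23.3 FPKM in control against 24.98 and 23.8 FPKM in mutant tissue.

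**Figure D4:**
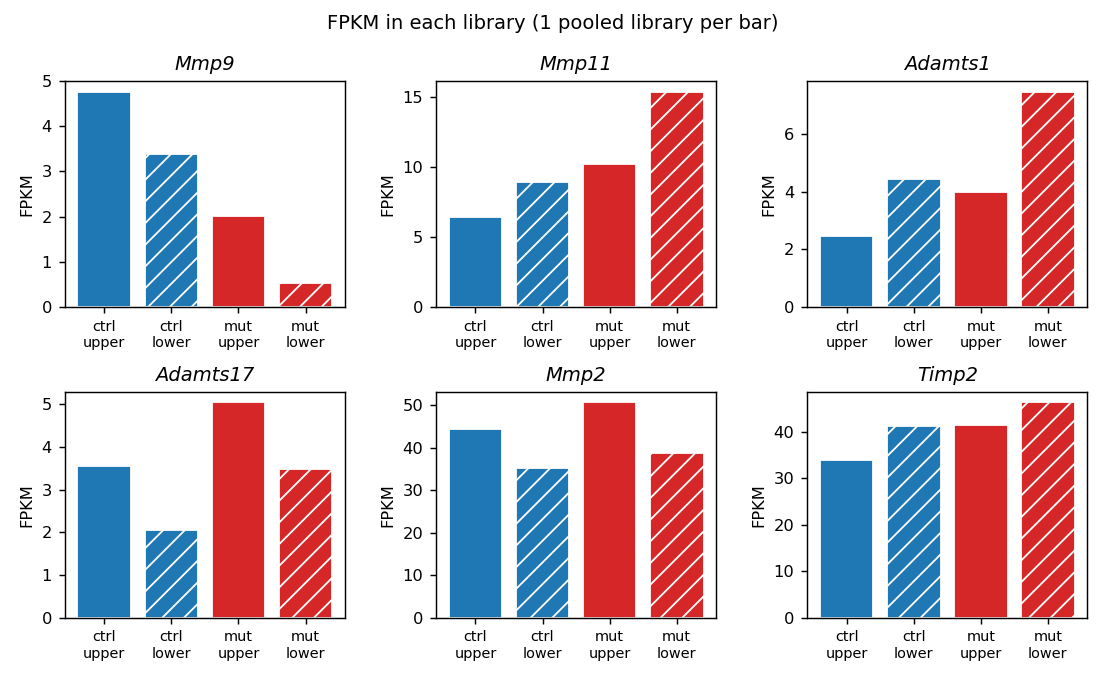
FPKM of Mmp9, Mmp11, Adamts1, Adamts17, Mmp2 and Timp2 in each library (blue control, red mutant, hatched lower molar), with 1 pooled library per bar and therefore no error bars. Mmp9 is lowest in the mutant lower molar at 0.529 FPKM, where Mmp11 and Adamts1 are highest at 15.4 and 7.46 FPKM.

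Among the 7 proteoglycanases, which cleave versican, aggrecan and related proteins, Adamts1, Adamts9 and Adamts20 were expressed. Adamts1 (chromosome 16, 85794073 to 85803360, mm9) had 2.48 FPKM in upper and 4.44 FPKM in lower molars of controls, against 3.99 and 7.46 FPKM in mutants. Within each molar the mutant was higher, at 161% and 168% of control, but the control lower molar lay above the mutant upper molar, so the genotypes overlapped (limma 0.58 ± 0.11, log2, SE, adjusted p = 0.10). Without the control upper or mutant lower library the difference was 0.26 or 0.199, and without the control lower or mutant upper library 0.903 or 0.96. Those fits have no molar term, so their values also carry part of the difference between lower and upper molars. Within the molars the mutant was higher by 0.52 (upper) and 0.64 (lower). Adamts9 was higher in both mutants by 0.13 and 0.16, and Adamts20, known for its part in pigment cell and palate development, differed by -0.20 and -0.24 (limma adjusted p = 0.66 and 0.51). Below the threshold, Adamts15 had 1.27 and 1.34 FPKM in control against 0.792 and 0.538 FPKM in mutant tissue, from about 98, 103, 70 and 45 reads. Both mutant libraries of Adamts15 were below both controls. Adamts5, a main aggrecan-cleaving enzyme of cartilage, was between 0.246 and 0.397 FPKM, and Adamts4 and Adamts8 were also below the threshold. Versican (Vcan), a substrate of these enzymes, had 81.1, 55.3, 71.8 and 59.1 FPKM in the control upper, control lower, mutant upper and mutant lower library, while the aggrecan gene Acan was not among the tested genes.

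The procollagen N-proteinases Adamts2 and Adamts3 were expressed, and Adamts14 lay just below the threshold. Adamts2 had 2.48, 2.32, 2.38 and 3.27 FPKM in the control upper, control lower, mutant upper and mutant lower library, with only the mutant lower molar apart from the rest. Adamts3 had 2.16, 1.82, 2.02 and 1.32 FPKM in the same order. The summed level of the 3 N-proteinases was between 5.22 and 5.55 FPKM in all libraries. limma called neither for genotype (adjusted p = 0.69 and 0.65).

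The other Adamts genes fall into pairs of close relatives. Adamts17 and Adamts10 act on or bind fibrillin microfibrils. Adamts17 (chromosome 7, 73984621 to 74297511, mm9) had 3.55 FPKM in upper and 2.05 FPKM in lower molars of controls, against 5.04 and 3.49 FPKM in mutants, which was 142% and 170% of control (limma 0.48 ± 0.12, log2, SE, adjusted p = 0.17). Its relative Adamts19 was between 0.243 and 0.556 FPKM. Adamts10 had 3.85, 5.52, 5.19 and 5.57 FPKM, with the control upper molar below the other 3 libraries, and its relative Adamts6 had 1.27, 0.668, 1.06 and 0.532 FPKM. Adamts10 is annotated with 3 transcripts of nearly equal length, between which the deposited estimates moved from library to library, so only the sum is used. Adamts7 and Adamts12, which cut cartilage oligomeric matrix protein, were at 1.44 to 2.16 FPKM and 2.31 to 3.29 FPKM. Both mutant libraries of Adamts7 lay above both controls (limma 0.27 ± 0.14, adjusted p = 0.48). Adamts13, which processes von Willebrand factor in blood, was listed at 0, and Adamts16 and Adamts18 were at or below 0.187 FPKM.

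Of the Adamtsl genes, Adamtsl1 had 1.22 FPKM in upper and 0.969 FPKM in lower molars of controls, against 1.796 and 1.79 FPKM in mutants, with both mutants above both controls (limma 0.42 ± 0.15, log2, SE, adjusted p = 0.33). Adamtsl3 had 0.249 FPKM in the control upper molar, about 24 reads, against 1.86, 1.06 and 1.65 FPKM in the control lower, mutant upper and mutant lower library, from about 177, 114 and 169 reads. The control upper library alone stood apart for Adamtsl3. Its limma difference by genotype was 0.30 with all libraries (adjusted p = 0.62). Without the control upper library it was -0.29, in a fit that has no molar term. Adamtsl2, Adamtsl4 and Adamtsl5 were at or below 0.290 FPKM.

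The inhibitors differed little by genotype. limma called 0 of the 3 expressed Timp genes, and 0 had an unadjusted p under 0.05. Timp2 differed by 0.28 (upper) and 0.16 (lower) between mutant and control, with both mutant libraries above both controls by a narrow margin of 41.4 against 41.2 FPKM (limma 0.22 ± 0.10, log2, SE, adjusted p = 0.43). Timp3 (chromosome 10, 85763157 to 85812250, mm9), which binds to the matrix and inhibits Adamts enzymes as well as Mmp enzymes, had 10.7, 14.0, 10.4 and 12.7 FPKM in the control upper, control lower, mutant upper and mutant lower library. Timp1, a soluble and widely inducible inhibitor, rested on about 9 to 18 reads per library, and a difference by genotype was not detectable at this depth. Timp4 was at or below 0.084 FPKM, at most about 2 reads. Timp1, Timp3 and Timp4 lie within synapsin genes (Syn1 for Timp1, Syn3 for Timp3, Syn2 for Timp4), and Timp2 overlaps BC100451. Syn1 was at 0.675, 0.378, 0.237 and 0.216 FPKM, near the level of Timp1, so reads could be shared there, while Syn3 was at most 1.44 FPKM against 10.4 or more for Timp3.

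Lower and upper molars were compared next, a contrast between the jaws that is present in both genotypes. limma called 0 of the 21 genes in either direction (0.39% of all genes higher in the lower molar and 0.333% lower). At an unadjusted p under 0.05 (limma), 6 were higher in the lower molar (4.11% of all genes) and 3 were lower (6.12%). The 6 were Timp3, Mmp11, Adamts1, Adamts12, Adamtsl3 and Timp1, and the 3 were Mmp2, Adamts17 and Mmp9. Of these, Timp1 rested on only about 9 to 18 reads per library. Counting direction alone, 11 of the 21 had higher values in lower molars in each genotype and 6 had lower ones, against 20.8% and 35% of all genes, and 4 went opposite ways (44%). After rescaling by median ratios these counts of direction were 12 and 5 of the 21. Over all 10502 genes they were 2805 and 3025, in place of 2182 and 3675. Members and all genes thus both moved with the scaling, toward higher values in lower molars. Both lower libraries lay above both upper libraries for 6 of the 21 (12.2% of all genes) and below both for 3 (21.2%). The median difference of the 21 genes was 0.11 in control and 0.16 in mutant, against 0.00 and -0.07 over all genes.

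Adamts1 had a jaw difference of similar size in both genotypes, with a lower molar level 1.79 times the upper in control and 1.87 times in mutant, and both lower libraries above both upper libraries (limma 0.70 ± 0.11, log2, SE, adjusted p = 0.058). limma called it with a pseudocount of 0.1 and without transcripts under 300 bases (adjusted p = 0.049 and 0.025), and not after rescaling (0.107), without a trend (0.092), without a filter (0.675) or without the genotype term (0.82). Leaving out 1 library gave 0.44 (control upper), 1.02 (control lower), 0.965 (mutant upper) and 0.385 (mutant lower). Those fits have no genotype term, so their values also carry part of the difference between mutant and control. For Mmp11 the ratio was 1.39 and 1.504 (limma 0.48 ± 0.11, SE, adjusted p = 0.16), and limma called it over genes averaging 5 FPKM or more (adjusted p = 0.034). Adamts17 went the other way, at 0.577 and 0.693 times the upper level (limma -0.50 ± 0.12, SE, adjusted p = 0.17). Adamts1 was thus higher both in the mutant and in the lower molar, and Adamts17 higher in the mutant and lower in the lower molar. The 2 contrasts share all 4 libraries.

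For the abundant Mmp2 and the Timp genes limma called 0 differences by jaw. Mmp2 had lower values in the lower molar, at 0.795 and 0.767 times the upper level in control and mutant (limma -0.35 ± 0.10, log2, SE, adjusted p = 0.29). Timp3 had higher values, at 1.30 and 1.22 times (limma 0.31 ± 0.11, SE, adjusted p = 0.39), and Timp2 at 1.21 and 1.12 times (adjusted p = 0.56). The summed Timp level per summed Mmp level was 0.360 in the control upper and 0.471 in the control lower molar, and 0.401 and 0.489 in the mutant, so both lower molars were above both upper molars. Mmp14 was level between the jaws, with a difference of 0.05 in control and -0.03 in mutant. In the controls 1 of the 21 genes, Adamtsl3, passed a 2-fold difference (0.971% of all genes; 0.448% higher and 0.524% lower in the lower molar), and in the mutants 0 did (1.28%), again in log2(FPKM + 1). In plain FPKM the mutant lower molar had 0.262 times the upper level of Mmp9 and 2.13 times that of Timp1. These rested on about 23 against 94 reads for Mmp9 and only about 18 against 9 reads for Timp1. With a pseudocount of 0.1 Mmp9 was counted. Past 1.5-fold were Adamts1 and Adamtsl3 in control, 2 of 21 against 2.91% of all genes, and Adamts1 and Mmp9 in mutant, 2 of 21 against 4.54%.

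Other genes of matrix turnover were read from fixed lists. Of all genes tested, 6.68% were higher and 6.51% lower by genotype at an unadjusted p under 0.05 (limma). By molar these shares were 4.11% and 6.12%, and the counts below are to be read beside them. Among the 12 expressed genes of other metalloproteases (Adam family, Bmp1, Tll1, Mme, Ece1 and others), limma called 0 for genotype and 0 for molar, with 0 and 2 at an unadjusted p under 0.05. Phex had the largest genotype difference among them (0.27, adjusted p = 0.73), at 0.958 and 2.27 FPKM in control against 2.66 and 1.535 FPKM in mutant tissue. Mme (neprilysin), the most abundant of these, had 27.5 and 27.4 FPKM in the upper and 38.2 and 38.2 FPKM in the lower molars of control and mutant. Among the 11 serine and cysteine proteases limma also called 0 for either contrast, with 2 for genotype (Fap and Prss35) and 1 for molar at an unadjusted p under 0.05. Prss35 was lower in both molars, at 1.17 and 2.20 FPKM in control against 0.439 and 0.976 FPKM in mutant tissue. Fap, a fibroblast protease of the cell surface, had 2.22 and 2.69 FPKM in control against 2.07 and 0.456 FPKM in mutant tissue. Only the mutant lower library stood apart for Fap. Of the 7 expressed inhibitors and cofactors limma called 0, with 2 for genotype at an unadjusted p under 0.05. These were Pcolce, an enhancer of procollagen C-proteinase, at 29.7 and 31.5 FPKM in control against 26.3 and 23.9 FPKM in mutant tissue, and Serpinf1. Reck, a membrane-bound inhibitor of Mmp enzymes, had 13.7, 14.1, 12.8 and 18.4 FPKM.

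Of the 16 expressed matrix substrates, limma called 0 for genotype, with 9 at an unadjusted p under 0.05, and 1 for molar, again with 9 unadjusted. Over all genes 6.68% higher and 6.51% lower had an unadjusted p under 0.05 for genotype, 4.11% and 6.12% for molar, and limma called 0.39% higher for molar. The called gene was Fbn2, fibrillin-2 of embryonic microfibrils, which rose from 23.3 to 37.4 FPKM from upper to lower molar in control and from 28.9 to 48.2 FPKM in mutant (limma 0.69 ± 0.10, log2, SE, adjusted p = 0.048). This call lay just under the threshold and was not followed under the alternative settings. Over all genes the molar calls went from 76 to 29 after rescaling. Eln, the gene of elastin, had 9.64 and 9.91 FPKM in control against 14.3 and 19.7 FPKM in mutant tissue (limma adjusted p = 0.081). Fbn1 had 21.4 and 25.5 FPKM in control against 15.6 and 17.7 FPKM in mutant tissue (adjusted p = 0.15), so the 2 fibrillin genes lay on opposite sides by genotype; the difference between them was not tested.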

How the data were processed

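Gene expression was measured in 4 pooled libraries, 1 for each combination of genotype and molar. Per the labels' protocols, RNA was extracted with an RNeasy Micro kit, amplified with NuGEN Ovation RNA-Seq v2 and made into libraries with Illumina Nextera. The submitters' processing notes name TopHat 1.4.1, Bowtie 0.12.7 and mm9; the strand setting, the Cufflinks version and the handling of multiply aligned reads are not given in the sources used here, and overlapping or near-identical genes can share reads. The authors deposited FPKM per RefSeq transcript, normalised to mapped reads, and coverage (mean depth, proportional to FPKM in each library), per the file headers. The members had 60 of 28107 transcripts, all with an estimation status of OK.

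FPKM was summed per gene symbol. Approximate reads are coverage times length over 44.2 bases, taken as the size of 1 read. That size is the median of low values inside a window fixed beforehand, so the window partly set it. Only between 28.4% and 29.8% of low values in a library lay within 0.1 of whole reads. Read numbers and limits given in reads are therefore rough estimates and not whole counts. No count test was run, and such depths cover counting error only. Loci are the deposited mm9 loci, counted from 1. Genes averaging 1 FPKM or more entered limma 3.58.1 (R 4.3.3) on log2(FPKM + 1), a pseudocount of 1, with genotype and molar as terms, an intensity trend, two-sided, adjusted at 0.05; the prior added 5.77 degrees of freedom to 1 residual. The script was tested on simulated data. Within a molar or genotype there was 1 library per group and no test, and a 2-fold difference was counted. Alternatives were a pseudocount of 0.1, a mean of at least 5 FPKM or no filter, median-ratio rescaling, no trend, no second term, no transcripts under 300 bases, a 1.5-fold limit and leaving out each library. Members and lists were chosen with earlier results of these data known. Named were all members with a mean of at least 1 FPKM, the 3 nearest below it and, from each other list, the genes that limma called and some of up to 4 with the largest genotype difference; genes named outside this rule (such as Adamts5, Adamts6, Mme, Reck, Vcan and neighbours of the Mmp cluster) were chosen after their values were seen.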

Additional observations from a re-analysis of the deposited data

Results flagged for a closer look

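A pair of genes had differences of at least 0.1 (log2) in opposite directions in the groups compared, and neither difference was tested, since no degree of freedom is left for it. Adamtsl3 differed between mutant and control by 0.72 in upper molars and by -0.11 in lower molars. Mmp16 differed between lower and upper molar by -0.19 in control and by 0.16 in mutant.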

How the results depend on the processing

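No paired analysis was possible because the labels give no replicate numbers and each group has 1 library; the molar term of the limma fit takes the place of a block. For genotype, the count of called members was 1 (Mmp9). It was 0 with a pseudocount of 0.1, without a filter, after rescaling, without an intensity trend and without a term for the molar, 2 (Mmp11 and Mmp9) without transcripts under 300 bases, and between 0 and 0 with 1 library left out; with a mean of at least 5 FPKM it was 1, but the gene was Mmp11, since Mmp9 no longer entered. For molar the count was 0, and 1 with a pseudocount of 0.1 (Adamts1), a mean of at least 5 FPKM (Mmp11) and without transcripts under 300 bases (Adamts1); it ranged from 0 to 0 with 1 library left out. Over all genes the genotype calls were 84 as reported, 146 at a mean of at least 5 FPKM, 133 without short transcripts, 38 without a trend, 12 after rescaling, 7 without the molar term, 0 without a filter (1590 at an unadjusted p under 0.05) and between 5 and 18 with 1 library left out; the molar calls were 76, and 127, 139, 65, 29, 12 without the genotype term, 0 (1402 unadjusted) and between 0 and 21 in the same order. Past 2-fold, the counts of members were 0 (upper) and 1 (lower) for genotype, and 1 for molar in control and 0 in mutant. With a pseudocount of 0.1 they were 2 in the upper molar and 1 in mutant, at a mean of at least 5 FPKM 0 in the lower molar and 0 in control, and with a 1.5-fold limit 3, 3, 2 and 2.

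Of 217 values of single members under the alternatives for each contrast, 195 for genotype and 203 for molar kept direction and side of the threshold. After rescaling the molar difference of Mmp16 was 0.019 in place of -0.01. The other changes of direction came from leaving out 1 library, with these ranges of the log2 difference. For genotype they were -0.023 to 0.35 for Mmp2, -0.26 to 0.10 for Timp3, -0.031 to 0.40 for Adamts10, -0.14 to 0.23 for Adamts12, -0.0079 to 0.33 for Adamts2, -0.36 to 0.0146 for Adamts3, -0.29 to 0.90 for Adamtsl3 and -0.35 to 0.19 for Timp1. For molar they were -0.0415 to 0.068 for Mmp14, -0.20 to 0.17 for Mmp16, -1.45 to 0.0752 for Mmp9, -0.048 to 0.32 for Adamts2, -0.18 to 0.19 for Adamts7, -0.34 to 0.17 for Adamtsl1 and -0.43 to 0.027 for Mmp17. For Mmp9 by genotype the range was -1.72 to -0.74. Leaving out a library also leaves no second term in the model and 1 arm with a lone library, assumed to vary like the other arm. A genotype value from such a fit mixes the difference within 1 molar with part of the difference between molars, and a molar value likewise. Its direction can therefore change although both molars agree. Mmp2 was higher in the mutant by 0.19 (upper) and 0.14 (lower), yet had -0.023 without the mutant upper library. Depth limits members with few reads, such as Timp1 and those below 0.1 FPKM.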
